A study of Homo sapiens with 30 samples.

Results

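This report describes 10 genes with tissue-restricted expression, CD4, CD70, STMN2, INA, BEX1, GABRA3, GABRE, RYR2, NOX1 and RUNX3, in a human embryonic kidney cell line and its knockout derivatives. They are 10 of the 16975 genes in the deposited table and were picked by symbol as neuronal, immune and channel genes whose messenger RNA seemed present in some lines and absent in others. Their levels chose them, so the levels are given here as a description and without a test. A working name for the set was genes switched on in single lines. The data went against that name: CD4 was the only one of the 10 on in a single group, and the other 9 were on in 2 to 10 of the 10 groups.

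HEK28 is a derivative of HEK293 (cultured human embryonic kidney cells) that secretes coagulation factor VIII. The 10 groups of 3 libraries were the wild-type parental HEK line, wild-type HEK28, and 8 single knockouts made in HEK28 by CRISPR. Those removed 2 lectin chaperones of the endoplasmic reticulum (CALR and CANX), the cargo receptor pair MCFD2 and LMAN1, or the autophagy genes ATG7, GABARAP, GABARAPL2 and GABARAPL1. All groups share the HEK293 origin, all were grown to about 70% confluency and none was treated. The cell line label reads HEK28 on the parental libraries too, so the titles were used to tell both wild types apart. The labels give no clone, passage or culture for a library, so whether a knockout line is 1 clone is not stated, and the spread between 3 libraries may be technical. A change in 1 line cannot be told apart from a trait of the cells that line was grown from.

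CD4 is the co-receptor by which helper T cells bind antigen presented on MHC class II, and CD70 is the ligand of the T cell receptor CD27. RUNX3 is a transcription factor of T cells and sensory neurons. STMN2 binds tubulin in growing axons, INA is the neuronal intermediate filament alpha-internexin, and BEX1 is a small adaptor protein of neural tissue. GABRA3 and GABRE encode the alpha3 and epsilon subunits of the GABA-A receptor, a chloride channel of neurons. RYR2 is the calcium release channel of heart muscle, also made in neurons, and NOX1 is a superoxide-producing NADPH oxidase best known from colon epithelium. Many tissue-restricted genes are kept silent elsewhere by repressors such as REST, which acts on neuronal genes, and by DNA methylation.

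CpG content, which in general bears on silencing by DNA methylation, differed between the promoters that could be looked up. Methylation was not measured here, and a link between CpG content and the levels was not tested. RefSeq's promoter table (GRCh38.p14) holds 6 of the 10 genes. In the 250 bases before the start, INA had 30 CpG pairs, GABRE 31, RYR2 25, BEX1 19, RUNX3 13 and NOX1 1, against a median of 11 over 35116 promoters. RUNX3 has 2 RefSeq starts, and its window belongs to the start that lies 111 bases from the GENCODE start. The window of the other RUNX3 start was not read. The 3 stretches printed here end 1 base before the RefSeq start and show both ends of that range, in genes on in 2, 8 and 5 groups. CpG pairs are in capitals, each line runs 5′ to 3′, and the last 4 bases of the GABRE line lie inside the GENCODE gene model.
INA, chr10:103277018-103277137, plus strand: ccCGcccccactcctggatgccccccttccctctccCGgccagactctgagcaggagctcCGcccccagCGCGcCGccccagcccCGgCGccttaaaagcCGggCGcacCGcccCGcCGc
GABRE, chrX:151974677-151974796, minus strand: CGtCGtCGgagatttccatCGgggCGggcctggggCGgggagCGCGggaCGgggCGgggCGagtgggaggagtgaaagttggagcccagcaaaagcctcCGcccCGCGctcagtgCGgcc
NOX1, chrX:100874360-100874479, minus strand: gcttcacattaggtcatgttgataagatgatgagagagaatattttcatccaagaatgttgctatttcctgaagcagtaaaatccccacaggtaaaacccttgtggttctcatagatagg
The INA stretch holds 13 CpG pairs and the GABRE stretch 15, while the NOX1 stretch holds 0. The Sp1 box GGGCGG was found on either strand of 4 of the 6 windows (INA, GABRE, RYR2 and RUNX3), and 42.6% of all promoters hold it. The RUNX motif TGTGGT was in the windows of NOX1 and RUNX3, against 11.0% of all promoters. The E-box CACGTG was in that of BEX1, against 6.34%. TATAAA, TGACGTCA and TGANTCA were in none of the 6, and 10.7%, 1.65% and 6.57% of all promoters hold them. CACGTG and TGACGTCA share the core letters ACGT. A match is a stretch of letters and not a bound site.

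Libraries held 149453 to 3937360 reads in the genes whose reads could be recovered, with a median of 610542. Some wild-type libraries lacked transcripts. Genes at 50 CPM (reads scaled to the size of the library) or more in each other group were checked for 0 reads. Of 2981 such genes for HEK28, 19 had 0 reads in replicate 1 and 5 in replicate 2. Of 3058 for the parental line, 9 had 0 reads in the first library and 1 in the second. Every other library had 0. Only HEK28 replicates 1 and 2 were also left out together, while the parental libraries were left out 1 at a time. The targeted gene had its lowest level in its own knockout for 7 of the 8 targets, and for 3 of them (CANX, CALR and LMAN1) all 3 libraries lay below all others. ATG7, at 6.4 CPM, was not lowest in its own knockout. The kidney and HEK293 markers KRT8, KRT18, CDH2 and VIM were on in all 10 groups, while KRT19, EPCAM and PAX8 are not among the listed genes. The other 3 listed of these 10 markers were not on throughout: CDH1 and PAX2 were on in 1 group each, with their highest level in the parental line, and LHX1 in 8 groups. Neuron markers were present in part: 17 of 32 are listed, 5 of them (SYT1, VAMP2, ELAVL2, NCAM1 and UCHL1) were on in all 10 groups, and DCX, TUBB3 and SNAP25 are not listed.

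A gene was called on in a group when its 3 libraries together reached 5 CPM and each had at least 1 read. It was called off under 2 CPM and trace in between or with an empty library. Of the 100 gene and group states, 53 were on and 33 off. The lowest level called on was CD70 in HEK28, at 5.8 CPM from 5 reads, and the highest called off was STMN2 in the MCFD2 knockout, at 1.91 CPM from 6 reads. The highest trace level was NOX1 in the LMAN1 knockout, at 18.4 CPM, where 1 library was empty. Reads are 3′ tags and CPM is not divided by gene length, so levels are compared between groups of 1 gene and not between genes. In such bulk libraries fewer cells making a transcript and less transcript per cell cannot be told apart.

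**Figure D1:**
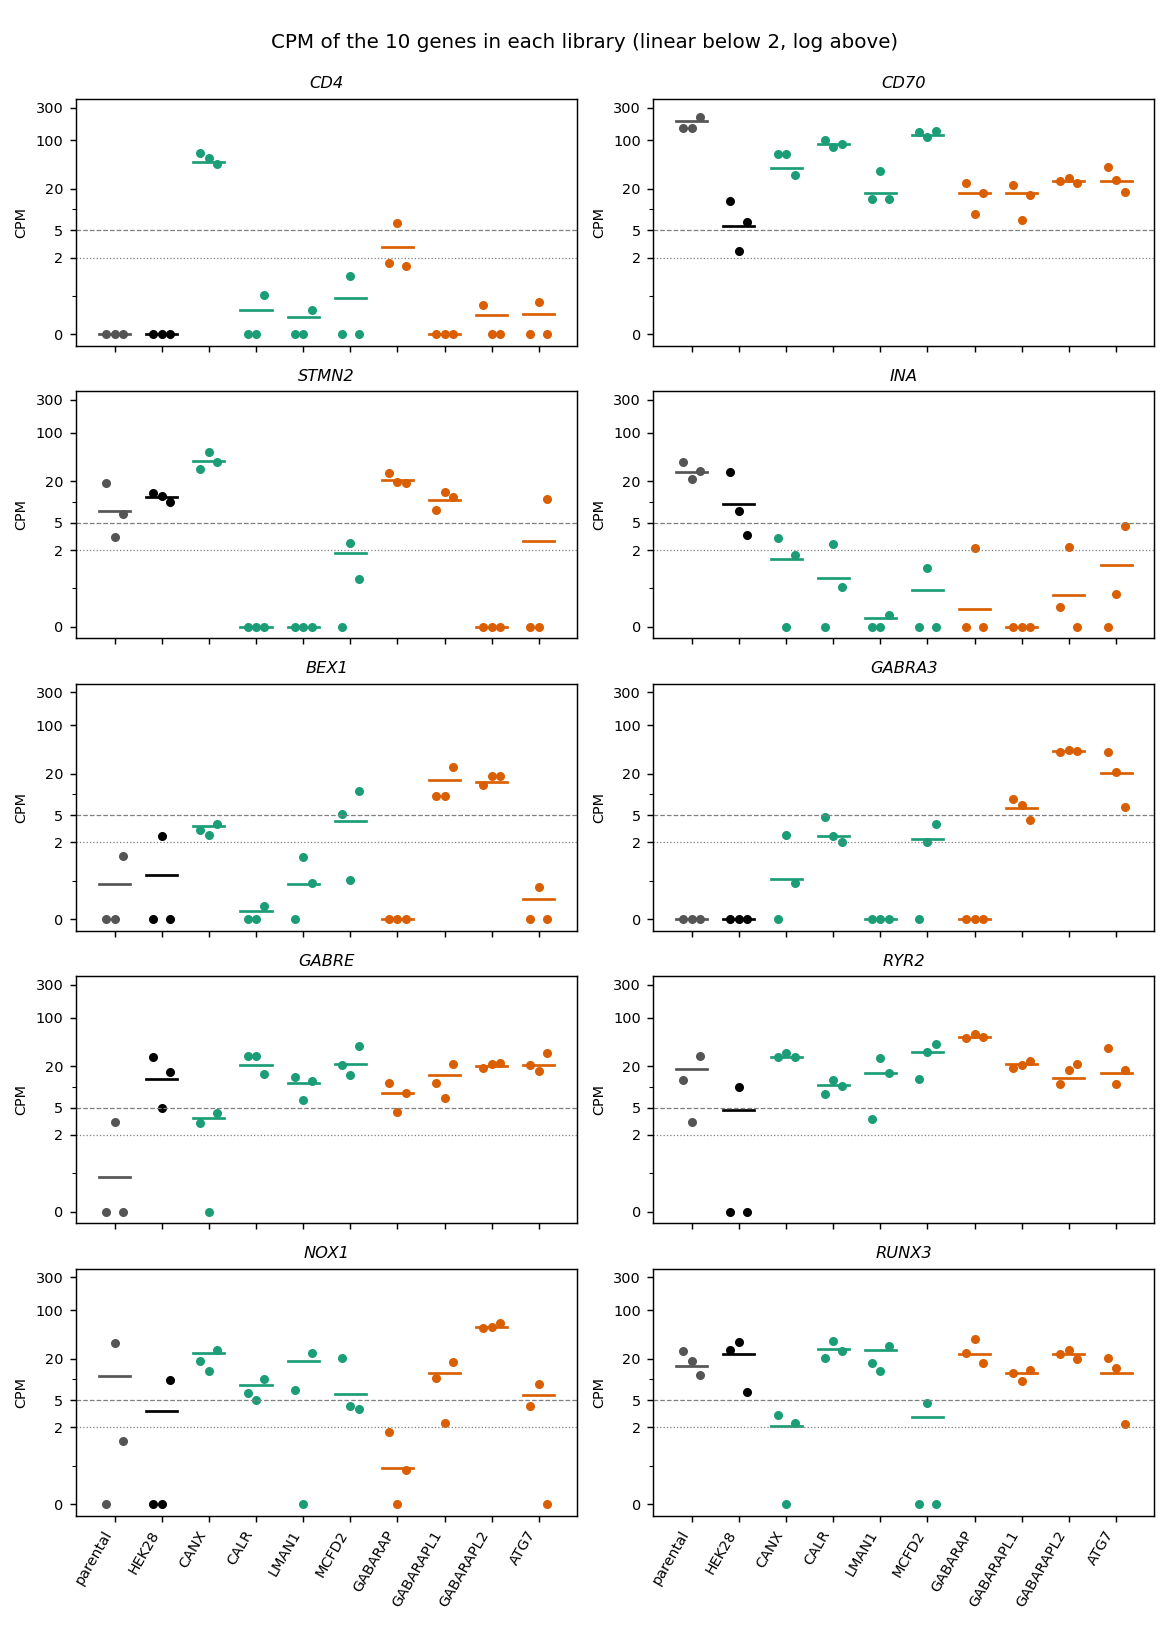
CPM of each of the 10 genes in every library (points, 3 per group) with the pooled CPM of the group (bars). The axis is linear below 2 and logarithmic above, with the on level of 5 dashed and the off level of 2 dotted. CD4 stands above 45 CPM in the 3 CANX knockout libraries and at or below 6.41 elsewhere.

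CD4 (12:6786858-6820808, plus strand) was on in the CANX knockout and in no other group. Loci are given on GRCh38 with GENCODE gene models. Its 3 libraries there held 22, 21 and 96 reads, which were 66.5, 54.7 and 45.1 CPM. Together that was 48.8 CPM, with an exact Poisson 95% interval of 41.1 to 57.7 that covers counting error only. In the GABARAP knockout CD4 had 1, 3 and 2 reads, a trace of 2.83 CPM. The other 8 groups were off, with 0 to 3 reads each over 3 libraries, and the lowest CANX library stood above the highest of the other 27. The 0 reads of HEK28 and of the parental line allow up to 3.48 and 2.74 CPM, which is above the off level, so these reads do not separate off from a trace there. Without the second GABARAP knockout library CD4 was on in 1 group and off in the other 9. That strict pattern was met by none of the 10 genes in the full data and by 25 of the 16905 genes with recovered reads, or 0.148%. On in 1 group and trace or off in the rest held for CD4 and for 6.51% of genes.

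T cell transcripts other than CD4 were few. Of the 20 other genes on a T cell list 15 are not listed at all, among them CD3D, CD3E, CD247, CD8A, CD28 and ZAP70. The 5 listed, among them CD3G and LCK, summed to 28.1 CPM in the CANX knockout, inside the range of 18.1 to 44.8 CPM over the groups. CD3G was the only one tested, against the mean of the other 9 groups with limma at an adjusted p under 0.05, and did not pass there. Its log2 difference was 0.57, beside a median of 0.05 over all tested genes and 2.13% of them called. LCK, the kinase bound by CD4, had 3 reads (1.05 CPM) in the CANX knockout. Its highest level was in the parental line, at 11.0 CPM from 12 reads. B cell and myeloid genes summed to 4.64 to 11.2 CPM, and CD14, CD68, CSF1R and ITGAM, myeloid genes of cells that can carry CD4, are not listed.

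CD70 (19:6583183-6604103, minus strand) was on in all 10 groups, as were 48.8% of genes, but its level ranged widely. The parental libraries held 152, 149 and 222 CPM. The MCFD2 knockout followed with 131, 112 and 138 CPM and the CALR knockout with 101, 80.7 and 88.5. These 3 groups did not overlap each other, and no library of another group passed 63.5 CPM, the first CANX knockout library. HEK28 lay at the bottom with 2, 1 and 2 reads (5.8 CPM, interval 1.88 to 13.5). Its on call rests on the first library and became trace without it. The 5 groups between, from ATG7 at 26.2 to GABARAP at 17.0 CPM, overlapped in their libraries except that GABARAPL2 lay above GABARAPL1.

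CD27, the receptor of CD70, is not listed. Of 28 other TNF family ligands and receptors 15 are listed and 8 were tested. In the parental line, where CD70 was highest, 3 passed higher and 1 lower against the mean of the other 9 groups, with 37.0% of all tested genes called there. TNFRSF9, the receptor 4-1BB, stood at 63.4, 60.9 and 102 CPM in the parental libraries and at most 14.4 in any other. Its log2 difference was 3.30 ± 0.41 (SE, limma, adjusted p = 8.96e-07). TNFSF9, its ligand, was at 19.0, 21.3 and 21.4 CPM there and at most 16.4 elsewhere (log2 difference 2.18 ± 0.55, limma, adjusted p = 0.00302). TNFRSF10D, a decoy receptor for TRAIL, rose by 1.48 ± 0.29 (limma, adjusted p = 0.000344). FAS fell by 1.77 ± 0.49 on the log2 scale (limma, adjusted p = 0.00621). The FAS call rests on few reads, 4 in the parental line. Without parental replicate 2 it was lost (limma, adjusted p = 0.157). TNFSF9 is also a neighbour of CD70, with a start 73.1 kb away on chromosome 19.

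RUNX3 (1:24899511-24965121, minus strand) was on in 8 groups and trace in 2. In the CANX knockout it had 1, 0 and 5 reads (2.11 CPM, interval 0.774 to 4.59), and in the MCFD2 knockout 0, 9 and 0 (2.86 CPM). The highest group was the CALR knockout with 20.5, 35.4 and 25.4 CPM, at a ratio of 1.03 to the LMAN1 knockout, so no group stood out at the top. The remaining 6 on groups spanned 12.3 to 23.6 CPM, and the GABARAPL1 knockout, at 12.3, 9.3 and 13.5 CPM, lay below every CALR knockout library. The highest ATG7 knockout library was level with the lowest of CALR at 20.5 CPM. Every library of the CANX and MCFD2 knockouts was at or below 4.6 CPM, while 1 library among the other 24 was lower still, the third ATG7 knockout at 2.22. Of 8 genes for related RUNX factors and partners 6 were tested. None passed in the CALR knockout by limma, where 4.08% of all genes did, and 0 of the 6 had an unadjusted p under 0.05 or passed with voom weights. Elsewhere TLE3, a co-repressor that RUNX proteins bind, rose in the parental line by 0.48 ± 0.15 (limma, adjusted p = 0.0162). Its relative TLE1 fell in the ATG7 knockout by 0.65 ± 0.16 on the log2 scale (limma, adjusted p = 0.0379), beside 1.43% of all genes called. The first call was lost without parental replicate 1 or 3 and the second without any 1 of the ATG7 libraries.

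**Figure D2:**
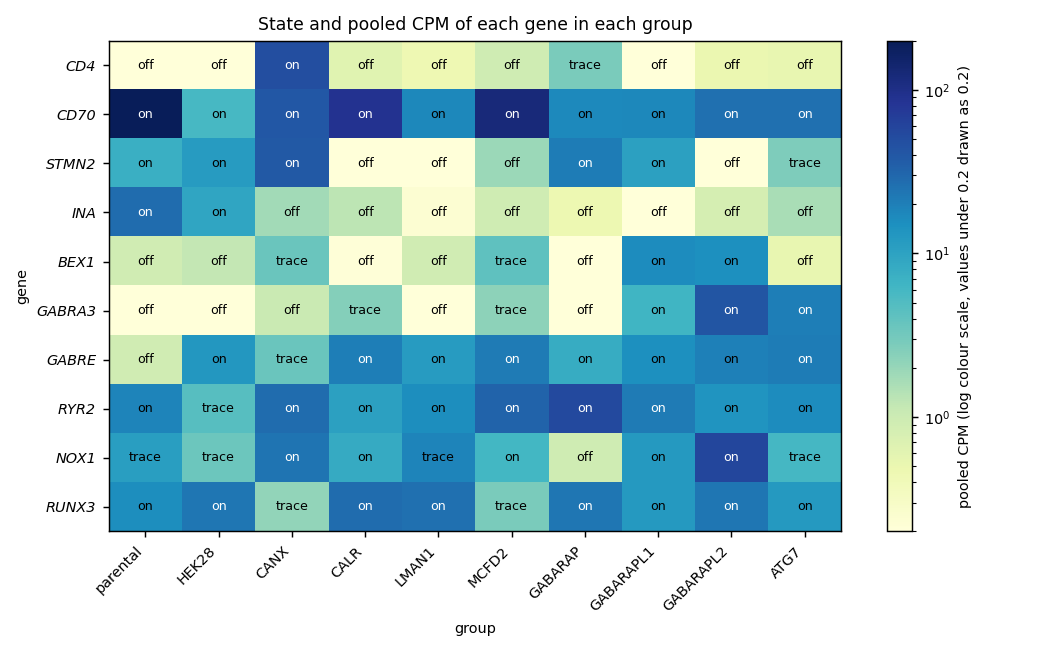
State of each gene (rows) in each group (columns), coloured by the pooled CPM of 3 libraries on a logarithmic scale. INA is on in the 2 wild-type columns only, and no row but CD70 is on throughout.

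STMN2 (8:79610814-79666175, plus strand) was on in 5 groups, highest in the CANX knockout. The libraries there held 30.2, 52.0 and 37.5 CPM from 10, 20 and 80 reads. The GABARAP knockout followed with 26.2, 19.2 and 18.8 CPM and did not overlap it. HEK28, the GABARAPL1 knockout and the parental line lay at 11.6, 10.5 and 7.31 CPM with overlapping libraries. CALR, LMAN1 and GABARAPL2 knockouts had 0 reads in all 9 libraries. Those 0 reads allow at most 0.63, 0.689 and 0.499 CPM. In the ATG7 knockout the reads were 0, 0 and 5, so a single library carried the trace. STMN2 was thus on in HEK28 and off in 4 knockouts, a change of state from on in HEK28 to off in a knockout that 1.69% of genes showed. The off call in the MCFD2 knockout became trace with off set under 1 CPM or without replicate 1 or 3. With 3 reads asked of every library HEK28 and the parental line became trace, and so did the parental line with on set at 10 CPM.

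Of the other stathmins STMN1 and STMN3 are listed and tested. Neither passed in the CANX knockout by limma, by its unadjusted p or with voom weights, and their median log2 difference was 0.15 there. STMN3 fell in the GABARAP knockout by 1.42 ± 0.27 on the log2 scale (limma, adjusted p = 0.00481), a group where STMN2 was on. It rose in the MCFD2 knockout by 1.15 ± 0.27 (limma, adjusted p = 0.0103), a group where STMN2 was off and 6.15% of all tested genes were called. Both STMN3 calls were lost when single libraries were left out. The GABARAP call went without replicate 3 (limma, adjusted p = 0.0622) and the MCFD2 call without any 1 of the 3.

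INA (10:103277163-103290351, plus strand) was on in the parental line and HEK28 and off in all 8 knockouts. The parental libraries held 6, 7 and 17 reads (38.1, 21.3 and 27.9 CPM) and the HEK28 libraries 4, 3 and 1 (26.8, 7.34 and 3.29 CPM). No knockout group exceeded 6 reads over its 3 libraries, and the highest single knockout library was the third of ATG7, at 4.43 CPM. The parental line did not overlap any knockout library, whereas the third HEK28 library did. Pooled levels were 27.4 CPM (18.5 to 39.1) in the parental line, 9.28 (4.01 to 18.3) in HEK28 and at most 1.76 (0.57 to 4.1) in a knockout. No other gene of the 16905 was on in both wild types and off in all 8 knockouts, which makes 0.00592%. The pattern depended on the levels and libraries used. INA in HEK28 became trace with on set at 10 CPM or with 3 reads asked of every library. With off set under 1 CPM it was trace in the CANX, CALR and ATG7 knockouts, and it was trace in CANX or ATG7 without replicate 2 of that group. The HEK28 call rests on replicates 1 and 2, which lacked some transcripts. Replicate 3 alone gives a trace from 1 read.

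The 3 filament genes that could be tested went the other way from INA in the parental line, while NES and PRPH, listed but too low to test, were second highest of the 10 groups there at 9.14 and 11.0 CPM. NEFL, the light neurofilament chain, stood at 653, 606 and 669 CPM there and at 1360 to 2290 in all other libraries (log2 difference -1.56 ± 0.08, limma, adjusted p = 6.74e-13). NEFM, the medium chain, fell by 0.49 ± 0.08 and VIM, the filament of mesenchymal cells, by 1.23 ± 0.13 on the log2 scale (limma, adjusted p = 4.57e-05 and 6.59e-08). These are the 3 tested of 5 listed, so 3 of 3 were lower, beside 23.2% of all genes. In HEK28, where INA was on too, the same 3 were higher, beside 8.22% of all genes. With HEK28 replicate 3 alone the log2 difference of NEFM shrank from 0.6 to 0.29. The HEK28 libraries held 2270, 2290 and 1630 CPM of NEFL and 495, 570 and 553 of VIM. For both genes replicate 3 lay within the range of the knockout libraries. Their differences with replicate 3 alone are not given here.

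BEX1 (X:103062651-103064240, minus strand) was on in the GABARAPL1 and GABARAPL2 knockouts. The GABARAPL1 libraries held 9.48, 9.3 and 24.5 CPM and those of GABARAPL2 13.5, 18.4 and 18.3, with a ratio of 1.07 between the groups and overlapping libraries. CANX and MCFD2 knockouts showed traces of 3.51 and 4.13 CPM, and the third MCFD2 library reached 11.2. In the other 6 groups the sum was 0 to 4 reads, with a highest library of 2.45 CPM in HEK28. Of 15 other BEX and TCEAL genes, the cluster of small adaptor proteins on the X chromosome, 9 were listed and all 9 were tested. None passed in the GABARAPL1 knockout by limma, where 0.379% of all genes did. There 1 of the 9 had an unadjusted p under 0.05 and 1 passed with voom weights. BEX5 had a log2 difference of 0.83 in that group in a fit without a filter (limma, adjusted p = 0.128). In the GABARAPL2 knockout, where 7.04% of all tested genes passed, 2 rose and 1 fell. BEX5 rose by 1.32 ± 0.21 (limma, adjusted p = 0.000561), with 139, 118 and 118 CPM against at most 111 in any other library. TCEAL3 rose by 1.11 ± 0.30 (limma, adjusted p = 0.0249), and that call was lost without any 1 of the 3 libraries.

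GABRA3 (X:152166234-152451358, minus strand) was on in the GABARAPL2, ATG7 and GABARAPL1 knockouts. The GABARAPL2 libraries held 164, 59 and 30 reads, at 41.7, 43.4 and 42.2 CPM. The ATG7 libraries were uneven at 40.9, 21.2 and 6.65 CPM, and those of GABARAPL1 held 8.53, 6.97 and 4.22 CPM. GABARAPL2 did not overlap the other groups, and the ATG7 and GABARAPL1 libraries overlapped. CALR and MCFD2 knockouts had traces of 2.52 and 2.22 CPM. Both wild types, LMAN1 and GABARAP knockouts had 0 reads in all 12 libraries, and the CANX knockout had 3 reads. Together with CD4 and BEX1, GABRA3 was off in both wild types and on in at least 1 knockout, as were 2.37% of genes. Counted against HEK28 alone, the same 3 were off there and on in at least 1 knockout, a pattern of 6.23% of genes.

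GABRE (X:151953124-151974680, minus strand) was on in 8 groups. It was off in the parental line (0, 1 and 0 reads) and trace in the CANX knockout (1, 0 and 9 reads, 3.51 CPM). MCFD2, ATG7, CALR and GABARAPL2 knockouts lay within 19.8 to 21.6 CPM and overlapped, with the first at 20.6, 14.8 and 38.7. HEK28 held 26.8, 4.9 and 16.4 CPM, a range that takes in every library of the LMAN1, GABARAPL1 and GABARAPL2 knockouts and overlaps the other 4 on groups. Every parental and CANX knockout library was at or below 4.22 CPM, and the lowest library of the 8 on groups was the second GABARAP knockout at 4.27. HEK28 differs from the parental line here in the opposite sense to CD70.

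GABRA3 and GABRE start 477 kb apart on the X chromosome, with GABRQ, the theta subunit, in the same cluster. GABRQ starts 187 kb from GABRA3 and is named after its values were seen. It did not pass the filter on low values. It was highest in the GABARAPL2 knockout at 14.5, 14.0 and 12.6 CPM, next in ATG7 at 12.3, 5.09 and 6.65, and at or below 6.05 in all other libraries. In a fit without the filter its difference in the GABARAPL2 knockout was 2.27 ± 0.47 on the log2 scale (limma, adjusted p = 0.00728). Of 18 other GABA-A genes 6 are listed and 4 were tested. None passed in the GABARAPL2 knockout by limma or with voom weights, nor had an unadjusted p under 0.05. In the MCFD2 knockout, where GABRE was highest, none passed by limma or had an unadjusted p under 0.05. There 1 passed with voom weights, and 6.15% of all tested genes passed by limma. Of all tested genes 7.04% passed in the GABARAPL2 knockout. The GABARAPL2 calls were 510 higher and 288 lower, and 426 and 532 after quantile normalisation.

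RYR2 (1:237042205-237833988, plus strand) was on in 9 groups and trace in HEK28, where only the second library had reads (0, 4 and 0). The GABARAP knockout was highest at 50.5, 57.7 and 52.9 CPM (53.4 pooled, interval 44.0 to 64.2), above every library of the other groups. The MCFD2 knockout came next at 12.9, 31.7 and 42.4 CPM, and the ratio between both groups was 1.66. The CANX knockout followed at 27.2, 31.2 and 26.7, and the other on groups lay between 10.5 and 21.3 CPM. Of these the CALR knockout, at 7.88, 12.4 and 10.3, did not overlap the GABARAPL1 knockout, at 19.0, 20.9 and 23.6. Of 16 genes for related calcium release channels and their partners 11 were tested. CALM3, a calmodulin gene whose product binds ryanodine receptors, was the 1 that rose in the GABARAP knockout, where 2.16% of genes passed. It stood at 150, 115 and 148 CPM, a log2 difference of 0.82 ± 0.15 (limma, adjusted p = 0.0044), and the CANX knockout overlapped it at 142, 117 and 121. Without replicate 1 or 3 of the GABARAP knockout the call was lost (limma, adjusted p = 0.0548 and 0.0561). RYR3, the brain form of the channel, rose in the parental line by 1.71 ± 0.54 (limma, adjusted p = 0.0152), a call lost without parental replicate 2 or 3.

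NOX1 (X:100843324-100874345, minus strand) was on in 5 groups and highest in the GABARAPL2 knockout, at 54.6, 56.6 and 66.1 CPM from 215, 77 and 47 reads. All other libraries were lower, and the nearest group, the CANX knockout, held 18.1, 13.0 and 26.7. Elsewhere replicates were uneven. The LMAN1 knockout had 4, 0 and 76 reads, and the parental line 0, 11 and 1. Leaving out single libraries turned the trace of the LMAN1 knockout, of the parental line or of the ATG7 knockout into on. Other omissions went the opposite way. The parental line and the ATG7 knockout became off without replicate 2, and HEK28 without replicate 3. The on call of the MCFD2 knockout became trace without replicate 1. The GABARAP knockout was the only group off, with 1, 0 and 1 reads. NOXO1 and NOXA1 encode the organizer and activator that NOX1 needs, and CYBA its membrane partner p22phox. Of 14 NADPH oxidase genes and partners 9 are listed and 3 passed the filter, and none of those passed limma or had an unadjusted p under 0.05 in the GABARAPL2 knockout, while 1 passed with voom weights. CYBA fell in the parental line by 1.92 ± 0.55 on the log2 scale (limma, adjusted p = 0.00749), a call lost without parental replicate 2 or 3.

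By group, 4 to 8 of the 10 genes were on. The GABARAPL1 knockout had 8 on (all but CD4 and INA) and the GABARAPL2 knockout 7, while LMAN1 and MCFD2 knockouts had 4 each. Most genes were on in each group. Of the 16905 with recovered reads, 12474 were on in the GABARAPL1 knockout, 12339 in GABARAPL2, 11649 in LMAN1 and 12807 in MCFD2. The counts of the 10 did not follow the reads of the group: the GABARAPL1 knockout held 2670128 reads and the LMAN1 knockout 4354286. On in at least 1 group and off in at least 1 was the state of 7 of the 10, against 17.0% of all genes, a pattern the choice of genes itself asked for. Among the 10, HEK28 and the parental line differed in state for GABRE (on against off) and RYR2 (trace against on). How many of all genes differ between them was not counted. As 0 reads allow up to 3.48 CPM in HEK28 and 2.74 in the parental line, a shared off state does not exclude a trace.

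Across the 30 libraries the closest pair among the 10 genes was CD4 with STMN2 (Pearson r of log2(CPM + 5) of 0.64), both highest in the CANX knockout. BEX1 with NOX1 followed at 0.58 and BEX1 with GABRA3 at 0.54, and the neighbours GABRA3 and GABRE reached 0.43. The most opposed pairs were STMN2 with GABRE at -0.59 and CD4 with GABRE at -0.49. These coefficients describe libraries that share groups and depth.

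The tested genes with the pattern most like each of the 10 were named by the same measure over 30 libraries, 3 for each. For CD4 they were RAD21 (r = 0.75), a cohesin subunit, PCK2 (0.7) and PHGDH (0.7), enzymes of gluconeogenesis in mitochondria and of serine synthesis. All 3 were highest in the CANX knockout, at 734, 60.8 and 279 CPM, but RAD21 and PHGDH were on in all 10 groups. For STMN2 they were CALM3 and ASNS, asparagine synthetase, at 0.69, and SUDS3 at 0.66. For CD70 they were ZMAT3 (0.87), H1F0 (0.86), a linker histone, and OPTN (0.85), an autophagy receptor. For INA they were YTHDF2 (0.92), a reader of methylated RNA, RNF216 (0.88) and IGF2BP2 (0.86), highest in the parental line and on in all groups. For GABRA3 they were FAM155A (0.84), RORB (0.8), a nuclear receptor of neurons, and BMP2 (0.8), a growth factor. Each was on in 3 groups, as was GABRA3, and highest in the GABARAPL2 knockout; whether the 3 groups were the same was not compared. NOX1 was closest to TM9SF2 (0.91), COL6A3 (0.89), a collagen chain, and CYR61 (0.88), a matricellular protein, also highest in the GABARAPL2 knockout. BEX1 (MIF, MAPKAPK5 and TLE4), GABRE (BACE2, RAB31 and CCDC74A), RYR2 (FANCD2, RABGAP1 and CCDC91) and RUNX3 (MRPS11, DCTN5 and UTP23) had r of 0.62 to 0.79.

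Genes beside the 10 were tested in the group where each of them was highest, since neighbours did not enter the choice. Within 1 Mb of the start, none of 24 tested neighbours of CD4 passed in the CANX knockout, nor any of 6 of STMN2 there. None passed for BEX1 (16), GABRE (5), NOX1 (13) or RUNX3 (17) either. Unadjusted p-values under 0.05 numbered 5 for CD4, 2 for STMN2, 1 for BEX1, 2 for RUNX3 and 0 for GABRE and NOX1. With voom weights the calls were 2 for CD4, 2 for RUNX3, 1 each for BEX1 and NOX1, and 0 for STMN2 and GABRE. The highest group led the next by ratios of only 1.07 for BEX1, 1.04 for GABRE and 1.03 for RUNX3. Neighbours were not counted in those next groups. All 9 tested BEX and TCEAL genes are among the 16 neighbours of BEX1. In the GABARAPL2 knockout, the next group for BEX1, 2 of these 9 rose (BEX5 and TCEAL3) and 1 fell. NSDHL, of cholesterol synthesis, was the 1 of 5 for GABRA3 and fell by 0.72 on the log2 scale in the GABARAPL2 knockout (limma, adjusted p = 0.0279), a call lost without any 1 of its libraries. NID1, a basement membrane protein, was the 1 of 7 for RYR2 and fell by 1.55 ± 0.23 in the GABARAP knockout (limma, adjusted p = 0.000518). CD70 had 4 higher and 3 lower of 27 in the parental line, and INA 2 higher and 7 lower of 22. In that line 37.0% of all tested genes passed, so 7 of 27 and 9 of 22 are near the background. Beside INA, SFXN2 fell by 2.17 and BORCS7 rose by 1.29 on the log2 scale. Beside CD70, ZNF358 fell by 3.96 and SAFB2 rose by 1.04.

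Repressors of tissue-restricted genes were read from 2 lists. All 12 genes of the REST complex were tested, and 3 rose and 0 fell in the parental line, beside 13.8% of all genes higher there. In HEK28, where INA was on too, 0 rose and 3 fell, beside 17.0% of all genes lower, and REST was at its lowest. HDAC1 was among these falls, and its log2 difference of -0.88 shrank to -0.15 with HEK28 replicate 3 alone. REST itself rose in the parental line, where INA was on and at its highest, by 0.78 ± 0.13 (limma, adjusted p = 3.2e-05), with 273 CPM against 101 to 168 in the other groups. Its co-repressor RCOR3 rose there by 0.96 ± 0.19 (limma, adjusted p = 0.000338). Of 15 DNA and histone methylation enzymes, all tested, DNMT3A, which sets new DNA methylation, rose in the GABARAPL2 knockout by 3.22 ± 0.36 (limma, adjusted p = 1.13e-05). Its libraries there held 331, 371 and 454 CPM, and no other library passed 115. The GABARAPL2 knockout was also the top group of GABRA3 and NOX1. DNMT3A was the 1 of the 15 that rose in that knockout and 1 other fell, beside 7.04% of all genes called. In the parental line 2 rose and 3 fell, beside 37.0% called. DNMT1, which maintains DNA methylation, rose there by 0.42 ± 0.11 (limma, adjusted p = 0.00421), lost without parental replicate 2. DNMT3B fell in the parental line by 1.08 ± 0.33 on the log2 scale (limma, adjusted p = 0.0133), which was lost without parental replicate 1.

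A list of X chromosome genes drawn up as restricted to the germline was mostly out of view: 6 of 30 are listed and 4 were tested. Not all of them are restricted in that way. MAGED1 and MAGED2, both tested, stood at 50.3 to 172 and 52.6 to 166 CPM over the groups of these kidney cells. MAGEB2 rose in the CANX knockout, the top group of CD4 and STMN2, by 2.75 ± 0.49 (limma, adjusted p = 0.00246). It was the 1 of the 4 called there, beside 2.13% of all tested genes. Its libraries there held 48.4, 54.7 and 49.3 CPM against at most 25.6 in any other. Among neuron genes, of which 8 of 17 listed were tested, 2 rose and 2 fell in the parental line, with a median log2 difference of 0.19 and 37.0% of all genes called. GAP43, a protein of growth cones, fell in the parental line by 2.85 ± 0.37 on the log2 scale (limma, adjusted p = 1.92e-06). VAMP2, of synaptic vesicles, rose there by 0.89 ± 0.27 (limma, adjusted p = 0.0126), a call lost without parental replicate 2 or 3. In the ATG7 knockout 1 rose and 1 fell, beside 1.43% of all genes called. UCHL1 rose by 0.66 ± 0.10 (limma, adjusted p = 0.00113). VAMP2 fell by 1.14 ± 0.27 on the log2 scale (limma, adjusted p = 0.0324), a call lost without ATG7 replicate 1 or 3.

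The comparisons of a group with the other 9 share libraries, since every group is also part of the reference of the others. The differences above are therefore not independent of each other. Reads of antisense or overlapping genes cannot be told apart from those of GABRA3, RYR2 and RUNX3, which overlap other gene models on the opposite strand, as does CD70 with a pseudogene. The same limit holds for models on the same strand, which overlap NOX1 (the pseudogene HNRNPA1P26), GABRE (MIR224 and MIR452), GABRA3, RYR2 and RUNX3. None of the overlapping models is itself listed.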

How the data were processed

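The deposited table holds log2 values per gene and library, made by the authors from 3′ RNA-seq of total RNA. Per the submitters' processing notes FastQC, cutadapt, TopHat2 and Bowtie were used with hg38. Tool versions, the read counter, its gene models, the scaling and any use of strand are unstated, that is, not given in the sources used here. The deposited values proved to be whole reads plus 0.5, on a log2 scale with 1 factor per gene and per library. Reads were recovered for 16905 of 16975 genes. In these genes all 478182 values under 200 reads, 100%, lay within 0.001 log2 of a whole read. A gene was taken as recovered only if its values lay near whole reads, so that share is not an independent check. On simulated data 99.4% of 5999 genes were resolved, and 100% of their reads under 200 were exact. CPM divides by the recovered total. Exact Poisson 95% intervals, and limits of 3 reads where there were 0, cover counting error only.

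Genes other than the 10 were tested on the deposited log2 values with limma 3.58.1 (R 4.3.3): each group against the mean of the other 9, with Benjamini-Hochberg adjustment over 11337 genes. Genes with recovered reads needed 16.4 CPM in at least 3 libraries and at least 15 reads, and all 10 chosen genes passed. The 70 genes without recovered reads, NEFM among them, were tested without that filter. On simulated counts of 11267 genes, for the GABARAPL2 comparison 7% of 2-fold and 79% of 4-fold changes were recovered, and for the CANX comparison 7% and 82%. Of all calls in those simulations, 2.27% and 11% were unchanged genes, the second above the share that the threshold of 0.05 aims at. Groups follow the titles, because 1 knockout has a misspelled genotype label. The 10 genes and the lists of related genes were chosen with earlier results of these data known. Besides the 10, the text names the 3 tested genes of highest Pearson r to each. From the lists it names genes called in the group where a related gene of the 10 was highest. For a list without such a call, at most 3 genes of the highest CPM were named. Further named genes were at most 4 other calls a list by size of difference, and at most 5 called neighbours each, nearest first. Alternatives were other on and off levels, a pseudocount of 5, no filter, quantile normalisation, voom weights, a reference of 7 knockouts, a replicate block, a window of 250 kb, Spearman's rho, and leaving out libraries. Replicates with the same number did not deviate together, with a median correlation of -0.00781 over 135 pairs (-0.25 to 0.378). The replicates of each group differed by more than sampling noise (lowest chi-square per gene 1.52). Some list genes are not reported here.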

Additional observations from a re-analysis of the deposited data

How the results depend on the processing

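No state of the 10 genes changed directly between on and off under any alternative tried, though states moved to and from trace. Genes on in 1 group and off in 9 numbered 25, but 7 with on set at 10 CPM and 3 with off set under 1 CPM. Among the 10 genes that count was 0, and 0 to 1 with single libraries left out. Calls against the other 9 groups grew with voom weights: to 983 in the CANX knockout (from 242), 2151 in CALR (462), 1997 in MCFD2 (697), 522 in GABARAP (245), 187 in GABARAPL1 (43) and 3705 in GABARAPL2 (798). With the 7 other knockouts as reference they were 158 in CANX and 462 in GABARAPL2. Without HEK28 replicates 1 and 2 they were 770 in CALR, 1129 in MCFD2, 604 in GABARAP and 79 in GABARAPL1, the lone HEK28 library being assumed to vary like the other groups. Leaving out 1 library of the group itself gave 69 to 139 in CANX, 124 to 179 in CALR, 262 to 445 in MCFD2, 82 to 96 in GABARAP, 15 to 26 in GABARAPL1 and 175 to 246 in GABARAPL2. Calls in related lists went from 73 to 130 with voom weights, neighbour calls from 18 to 3 within 250 kb, and Spearman's rho named 10 of the 30 closest genes. Without HEK28 replicates 1 and 2, BEX4 in HEK28 turned from -0.88 to 0.64 and KDM6B from -1.85 to 0.31. Causes were not tested. The replicate numbers do not pair the libraries. With a replicate block the calls were 4152 in the parental line, 228 in CANX, 448 in CALR, 681 in MCFD2, 246 in GABARAP, 39 in GABARAPL1 and 777 in GABARAPL2, and of the named genes it ended only the calls of TLE1 in ATG7 (limma, adjusted p = 0.0515) and TLE3 in HEK28 (0.0544). Depth limits the wild types most: 0 reads in HEK28 allow up to 3.48 CPM.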
